A study of Homo sapiens with 9 samples.

Results

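The genes described here are 10 long noncoding RNA genes that carry small nucleolar RNAs (snoRNAs) in their introns: GAS5 and the SNHG genes SNHG1, SNHG3, SNHG5, SNHG6, SNHG7, SNHG8, SNHG12, SNHG15 and SNHG16. They were chosen by symbol, and all 10 were found among the 26621 genes to which the transcript entries of the series were matched. The series holds 9 libraries of a sequencing protocol, CLT-seq, that primes reverse transcription of total RNA with oligo(dT), and 7 of them had read counts per gene. HEK293T, a transformed human embryonic kidney line, was sampled with 6 primers, and A549, a human lung carcinoma line, with the T12 primer, in each case as unmodified (WT) cells and with 1 counted library per primer. The T12, T18 and T30 primers end in a plain run of 12, 18 or 30 T and are called unanchored. The anchored primers T18V, T18VN and T18VNN carry 18 T and then 1, 2 or 3 further bases, the first of which is not T. The series' text lists the sequence of the T18VN primer under the name T12VN, and the sample title was followed.

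In snoRNA host genes the spliced exons form the host RNA, while each snoRNA is cut from an intron and enters a nucleolar ribonucleoprotein. Box C/D snoRNAs guide ribose methylation of ribosomal and spliceosomal RNA, and box H/ACA snoRNAs guide conversion of uridine to pseudouridine. Host RNAs of this kind often begin with a pyrimidine tract that couples them to translation and growth, and several, GAS5 among them, are removed by nonsense-mediated decay. The mature host RNA ends in a poly(A) tail, to which oligo(dT) can anneal, and the mature snoRNA does not.

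The 10 spans held 35 snoRNA entries, all on the strand of the host, of which 25 were box C/D (SNORD) and 10 box H/ACA (SNORA) by name. GAS5 held 11 of them, SNHG1 8, SNHG12 4 and SNHG16 3, SNHG3, SNHG5 and SNHG7 held 2 each, and SNHG6, SNHG8 and SNHG15 held 1. Of 33 entries whose host was linked to a GENCODE transcript, 31 lay inside an intron of it, the others being SNORD25 in SNHG1 and SNORA103 in GAS5. The sequences that the results turn on follow, 5′ to 3′, as DNA letters. The first is the whole of SNORD50A, a box C/D snoRNA in an intron of SNHG5 (minus strand, chr6:85677294-85677368 in GRCh38), shown because it took most snoRNA reads, with its longest adenine run, bases 40 to 50, in capitals. The second is SNORD79 of GAS5 (minus strand, chr1:173865350-173865430 in GRCh38), shown because its reads gathered in 1 library, with the first of its longest adenine runs, each of 4 bases, in capitals.
SNORD50A: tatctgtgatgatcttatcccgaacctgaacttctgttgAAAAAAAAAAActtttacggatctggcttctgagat
SNORD79: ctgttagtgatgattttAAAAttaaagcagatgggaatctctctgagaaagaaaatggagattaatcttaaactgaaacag
The next 3 are the last 30 bases of host transcripts as linked in GENCODE release 29, shown because oligo(dT) priming at a tail starts at such an end, with the polyadenylation signal AATAAA or ATTAAA in capitals.
SNHG5: acaaacatgaaAATAAAacatgtaattttg
SNHG7: ggatgaagtgaATTAAAagatttaaatgca
SNHG1: gatgaaaatAATAAAatgattgattacata
The last is a stretch inside the SNHG16 transcript, 587 bases from its 3′ end, with a run of 12 adenines in capitals.
SNHG16: ttgtaaattAAAAAAAAAAAAtcactattt
Of the 7 hosts whose linked transcript end was read, 6 had either signal in their last 30 bases, and SNHG16 had neither. A run of at least 12 adenines was present in 8.88% of 24544 linked transcripts and, among these 7 hosts, in SNHG16 alone. The linked transcripts were not all as long as the deposited entries (SNHG5 430 bases against 507, SNHG16 1947 against 2538), so an end shown may not be the end that was counted.

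Library totals ran from 7491993 reads (T18V) to 25578543 (T18) in HEK293T and came to 11127940 in A549. Within HEK293T every anchored total was smaller than every unanchored one, so primer class and library total cannot be told apart. Reads on genes, which set the precision here, overlapped between the classes, at 2215678 to 5200086 with the unanchored and 2810471 to 4480318 with the anchored primers, and were 1498149 in A549. CPM, read counts scaled to a common total of reads on genes, were taken from these. A level of 3 reads, the floor for a count of 0, was 0.577 CPM in T18 and 2.00 CPM in A549. With 1 library per primer, the 3 primers of a class stand in for replicates, so every spread and p-value measures differences between these libraries, not between cultures. The labels name no batch or date. All 8 A549 markers were at least 2-fold higher in the A549 library (TGFBI had 8046 reads there and 0 in HEK293T T12). Of 6 HEK293T markers 4 were at least 2-fold lower (NEFM 0 against 4502 reads), while ENO2 was higher in A549, at 36.7 against 3.37 CPM. The markers were listed with earlier results of these data known, so they are not an independent check of identity. Each library is a bulk sample of 1 cell line, so a value is a mean over its cells.

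Per kilobase of transcript, SNHG16 was the most abundant host in HEK293T at 518 ± 102 CPM per kilobase (SD, n = 6 libraries), followed by SNHG6 at 485 ± 110, SNHG5 at 419 ± 139, SNHG8 at 336 ± 95.7, SNHG7 at 311 ± 79.0 and SNHG1 at 245 ± 35.4. GAS5 came next at 124 ± 42.3 CPM per kilobase, then SNHG3 at 109 ± 34.9, SNHG12 at 57.3 ± 11.96 and SNHG15 at 8.46 ± 5.70. Neighbours in this order mostly overlapped between libraries. The exceptions were SNHG1 over GAS5, SNHG3 over SNHG12 and SNHG12 over SNHG15, whose ranges did not meet. In A549 the order by CPM per kilobase was SNHG5 (836), SNHG6 (568), SNHG7 (322), SNHG8 (139.1), SNHG16 (138.6), GAS5 (59.1), SNHG3 (52.4), SNHG1 (41.2), SNHG12 (25.3) and SNHG15 (4.16).

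**Figure D1:**
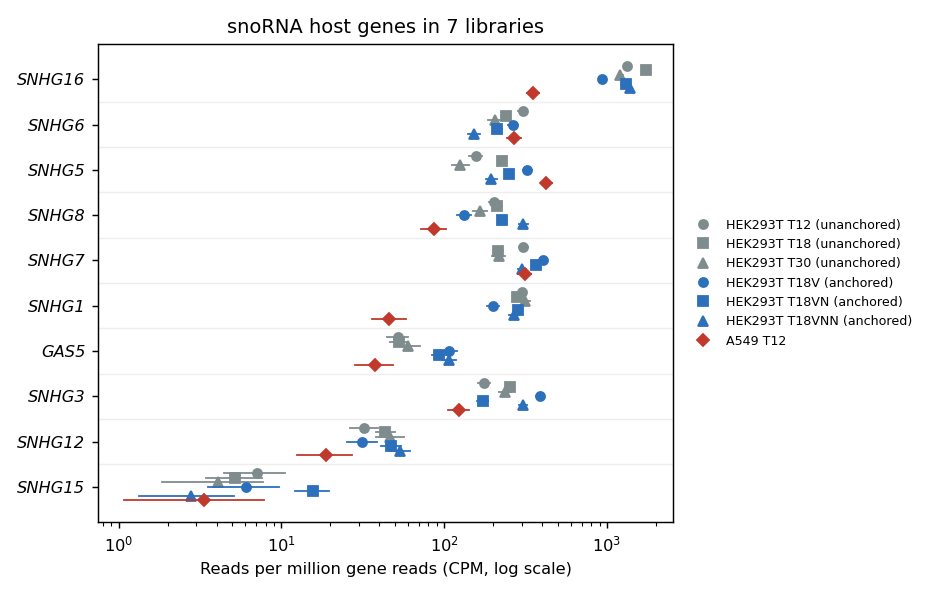
CPM (read counts scaled to a common total of gene reads, log axis) of the 10 host genes in the 7 libraries, with genes ordered by CPM per kilobase in HEK293T; bars are exact 95% Poisson intervals, which cover counting error only. GAS5 lies at 51.8 to 60.0 CPM with the unanchored primers and at 93.1 to 108 CPM with the anchored ones, and A549 (red) lies left of every HEK293T point for SNHG1, SNHG3, SNHG8, SNHG12, SNHG16 and GAS5 and right of every one for SNHG5.

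The first comparison set A549 against HEK293T with the same T12 primer. Of the 10 host genes 8 had a lower value in A549, SNHG1 and SNHG16 by the most, while SNHG5 was higher and SNHG6 and SNHG7 were close to their HEK293T values. With 1 library of each line the comparison has no replicate check and no test. At a 2-fold threshold on log2(CPM + 1), 3 of 10 host genes were lower in A549 (SNHG1, SNHG16 and SNHG8) and 1 was higher (SNHG5), where 29.2% of the 10143 genes that reached 20 reads in either library were lower and 31.0% higher. Against all 6 HEK293T libraries, A549 was below every one for 6 of 10 hosts and above every one for 1, where the shares over all genes were 28.8% and 33.8%. The median log2 ratio of the hosts was -0.64 and that of all genes 0.02. TMM scaling moved the median of all genes to -0.22 and that of the hosts to -0.88. On that scale 4 of 10 hosts were at least 2-fold lower and 1 higher, where 33.6% of all genes were lower and 27.0% higher.

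The widest differences, in both directions, were in hosts of box C/D snoRNAs. SNHG1, which carries the SNORD25 to SNORD31 series and SNORD22 (chr11:62619460-62623360, minus strand, hg19), had 299, 279.6 and 313 CPM with T12, T18 and T30, 199.6, 283 and 267 CPM with T18V, T18VN and T18VNN, and 46.1 CPM in A549. The A549 value lay below all 6 HEK293T values, and against HEK293T T12 it was 6.49-fold lower (95% counting interval 5.08 to 8.41; 69 against 976 reads). SNHG16, host of the SNORD1 snoRNAs (chr17:74553846-74561430, plus strand, hg19), had 1331, 1731 and 1208 CPM with the unanchored primers, 930.4, 1305 and 1381 CPM with the anchored ones and 352 CPM in A549. It was 3.78-fold lower in A549 than in HEK293T T12 (3.46 to 4.15).

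SNHG5, host of SNORD50A and SNORD50B (chr6:86386725-86388451, minus strand, hg19), went the other way. It had 156, 227 and 125 CPM with T12, T18 and T30, 323, 249.5 and 195 CPM with T18V, T18VN and T18VNN, and 424 CPM in A549. A549 lay above all 6 HEK293T libraries, 2.72-fold over HEK293T T12 (2.42 to 3.06). Against the median of the 6 HEK293T libraries its log2 ratio was 1.00. SNHG6, host of SNORD87 (chr8:67834165-67837777, minus strand, hg19), had 303, 239 and 204 CPM, then 263, 212 and 153 CPM, and 268 CPM in A549, inside the HEK293T range. Its log2 ratio of -0.18 against HEK293T T12 became 0.25 against the HEK293T median.

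GAS5, first found as a transcript that accumulates in growth arrest (chr1:173833039-173837125, minus strand, hg19), had 51.8, 52.5 and 60.0 CPM with T12, T18 and T30, 106, 93.1 and 108 CPM with T18V, T18VN and T18VNN, and 37.4 CPM in A549. A549 was below all 6 HEK293T libraries. It was 1.38-fold lower than HEK293T T12 (1.02 to 1.91), and the log2 ratio of -0.46 became -1.01 against the HEK293T median, which includes the higher anchored libraries.

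Among the hosts of box H/ACA snoRNAs, SNHG8 was the one past the 2-fold threshold. SNHG8, host of SNORA24 (chr4:119199917-119200978, plus strand, hg19), had 203, 212 and 166 CPM with T12, T18 and T30, 132, 228 and 306 CPM with T18V, T18VN and T18VNN, and 86.1 CPM in A549, 2.36-fold lower than HEK293T T12 (1.95 to 2.87). SNHG3, host of SNORA73A and SNORA73B (chr1:28832455-28837404, plus strand, hg19), had 176, 252 and 236 CPM, then 387, 172 and 306 CPM, and 123 CPM in A549, below all HEK293T values but 1.44-fold below T12 (1.21 to 1.71). SNHG3 starts at the same base as RCC1, a guanine nucleotide exchange factor gene on the same strand, which contains its whole span, and RCC1 had 617 CPM in HEK293T T12 and 109 CPM in A549. Reads common to both entries cannot be told apart.

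SNHG7, host of SNORA17A and SNORA17B (chr9:139619046-139622636, minus strand, hg19), had 306, 215 and 217 CPM with T12, T18 and T30, 403, 366 and 301 CPM with T18V, T18VN and T18VNN, and 312 CPM in A549, a ratio of 1.02 to HEK293T T12 (0.911 to 1.14) whose log2 value of 0.03 became -0.23 with TMM scaling. SNHG12, which holds 3 SNORA entries and SNORD99 (chr1:28905050-28908366, minus strand, hg19), had 32.2, 43.5 and 46.5 CPM, then 31.3, 47.3 and 53.4 CPM, and 18.7 CPM in A549. The A549 value was below all 6 others and 1.72-fold below HEK293T T12 (1.13 to 2.71). SNHG15, host of SNORA9 (chr7:45022627-45026259, minus strand, hg19), was near the floor. It had 7.04, 5.19 and 4.06 CPM, then 6.05, 15.6 and 2.78 CPM, and 3.34 CPM (5 reads) in A549, with an interval of 0.785 to 7.11 around its 2.11-fold lower value. At this depth no difference between the lines was detectable for SNHG15.

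**Figure D2:**
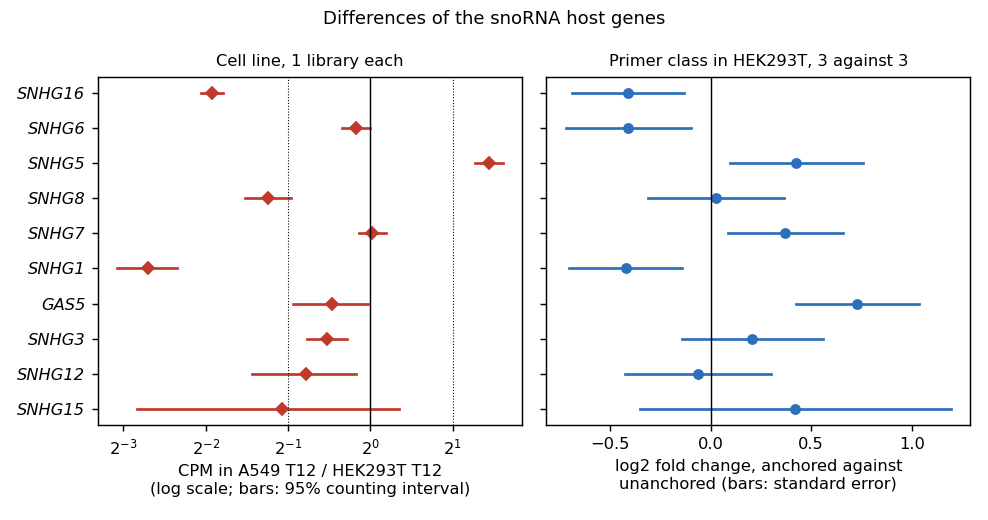
Left, the ratio of CPM in A549 T12 to HEK293T T12 for each host gene (log axis; bars are 95% intervals from read counts, dotted lines a 2-fold difference); right, the edgeR log2 fold change of anchored against unanchored primers in HEK293T (bars are standard errors, 3 libraries a class). SNHG1 sits lowest on the left, 6.49-fold below HEK293T, and SNHG5 is the 1 gene past 2-fold on the right of that panel; GAS5 has the largest change on the right panel, 0.73.

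The second comparison asked whether anchor bases change what is counted for these genes in HEK293T. GAS5 was the 1 host gene whose 3 anchored libraries all lay above its 3 unanchored ones, at 102 ± 8.07 CPM (SD, n = 3) against 54.8 ± 4.57 CPM, and no host was separated the other way, where 16.8% of the 10885 genes tested were separated upward, 6.8% downward and 23.6% in either direction. No host gene was called by edgeR's quasi-likelihood test at a Benjamini-Hochberg adjusted p under 0.05, where 1.35% of all genes tested were called (0.781% higher, 0.57% lower). DESeq2 also called 0 of the 9 to which it gave an adjusted p (all but SNHG15), and 1 of 10, GAS5, had an unadjusted edgeR p under 0.05, where 15.6% of all genes had. GAS5 had a log2 fold change of 0.73 (SE 0.31, edgeR adjusted p = 0.28), and 0.67 (SE 0.37, edgeR adjusted p = 0.548) without T18VNN. Its range over 11 alternative analyses was 0.66 to 0.82.

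The other hosts of C/D snoRNAs had log2 fold changes of -0.42 (SNHG1, SE 0.28), -0.41 (SNHG16, SE 0.28), -0.41 (SNHG6, SE 0.31) and 0.43 (SNHG5, SE 0.33), none past the edgeR threshold. The H/ACA hosts had 0.37 (SNHG7, SE 0.29), 0.21 (SNHG3, SE 0.35), 0.03 (SNHG8, SE 0.34), -0.06 (SNHG12, SE 0.37) and 0.42 (SNHG15, SE 0.78). The edgeR adjusted p of these 9 ran from 0.521 to 0.983. All of these values are relative to other genes. Scaled instead by library totals, which count reads off genes as well, the median log2 fold change of all 10885 genes was 1.07 and that of the hosts 1.19, all 10 hosts were positive, and edgeR called GAS5 (1.85, adjusted p = 0.0118), SNHG7 (1.47, adjusted p = 0.0302) and SNHG5 (1.48, adjusted p = 0.0411) among 2266 genes. On this scale 20.3% of all genes were called higher. It raises all genes together, and SNHG1, SNHG6, SNHG12 and SNHG16, which were negative relative to other genes, were positive but below that median.

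The 10 hosts together took 0.287%, 0.326% and 0.258% of gene reads with T12, T18 and T30 and 0.278%, 0.297% and 0.307% with T18V, T18VN and T18VNN. The means of 0.290% ± 0.0340 and 0.294% ± 0.0147 (SD, n = 3 each) differed by 0.00419 percentage points, less than the spread between primers (two-sided exact permutation p = 0.9; 0.9 after adjustment over 2 tests; the smallest possible is 0.1). A549 stood at 0.167%, under every HEK293T library. As a share of the library total the hosts took 0.0494%, 0.0662% and 0.0301% with the unanchored primers and 0.104%, 0.0834% and 0.0852% with the anchored ones, classes that did not overlap (exact permutation p = 0.1). Reads on all genes separated in the same way, at 17.3%, 20.3% and 11.7% of the library total with the unanchored primers and 37.5%, 28.1% and 27.7% with the anchored ones, so this separation is not particular to the hosts.

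Of the hosts, 4 run tail to tail into a gene on the other strand. The 3′ end of GAS5 overlaps that of GAS5-AS1, an antisense long noncoding RNA, by 41 bp, SNHG6 overlaps MCMDC2 by 119 bp, SNHG7 overlaps DIPK1B by 125 bp and SNHG12 overlaps TRNAU1AP by 8 bp. Such overlaps were present for 7.22% of the 26621 genes. Counting is not stated to use strand, and reads in these stretches cannot be assigned to either gene. GAS5-AS1 had 38.6, 31.9 and 37.5 CPM with T12, T18 and T30, 83.6, 79.7 and 83.4 CPM with T18V, T18VN and T18VNN, and 11.3 CPM in A549. Like GAS5 it was higher in every anchored than in every unanchored library, with a log2 fold change of 1.02 (SE 0.31, edgeR adjusted p = 0.142), and in A549 it was 3.40-fold lower than in HEK293T T12 (2.04 to 6.02). MCMDC2 and DIPK1B had log2 fold changes of -0.60 (SE 0.32) and 0.14 (SE 0.28), each with the sign of its host. TRNAU1AP had the opposite sign to SNHG12, with a log2 fold change of 1.31 (SE 0.76, edgeR adjusted p = 0.445). It had 2.45, 4.23 and 8.58 CPM with the unanchored primers, 15.3, 4.46 and 22.8 CPM with the anchored ones and no read in A549.

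The genes whose CPM followed GAS5 most closely over the 6 HEK293T libraries, among 1797 genes with a mean of at least 100 CPM, were IFRD2 (Pearson r = 0.999), LSMEM2 (0.999) and MTPN (0.997). Correlations above 0.95 were found for 61 of them. IFRD2 and LSMEM2 are themselves tail to tail, with 383 bp in common, and had nearly the same values, IFRD2 23.9 to 42.4 CPM with the unanchored primers and 154 to 224 CPM with the anchored ones. The 6 points of each correlation fall into the 2 primer classes and share library and depth.

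**Figure D3:**
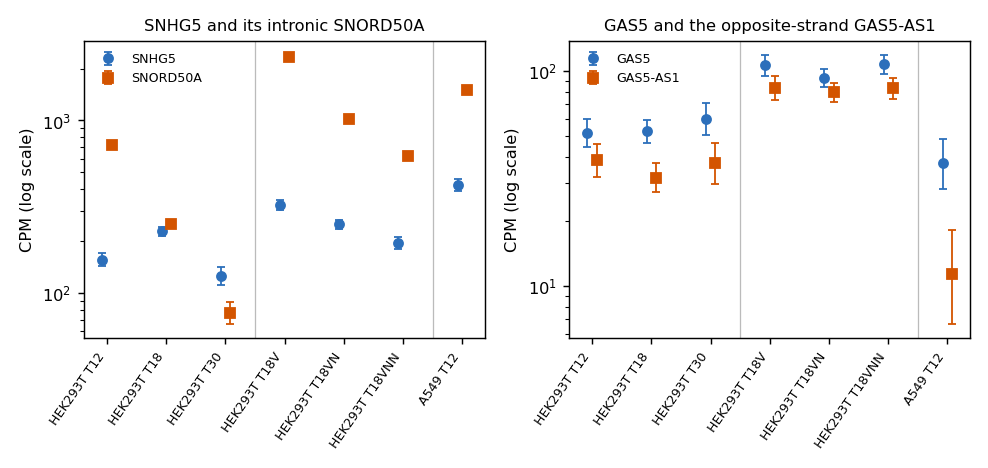
CPM by library (log axis, exact 95% Poisson intervals) of SNHG5 with its intronic SNORD50A on the left and of GAS5 with the opposite-strand GAS5-AS1 on the right; vertical lines separate unanchored primers, anchored primers and A549. SNORD50A runs from 76.7 CPM with T30 to 2343 CPM with T18V while SNHG5 stays between 125 and 424 CPM, and GAS5 and GAS5-AS1 are both higher in each anchored than in each unanchored library.

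The intronic snoRNAs were then read beside their hosts. Reads on the 35 snoRNA entries came to 21275 over the 7 libraries, and SNORD50A alone held 91.5% of them. It is a guide for ribose methylation of large-subunit ribosomal RNA. SNORD50A had 722 CPM with T12, 250.0 CPM with T18 and 76.7 CPM with T30, then 2343 CPM with T18V, 1018 CPM with T18VN and 624 CPM with T18VNN, and 1503 CPM in A549. Values were lower with longer unanchored primers and with more anchor bases, and the classes overlapped because T12 lay above T18VNN. Each step rests on 1 library per primer.

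SNORD50A was 2.89-fold lower with T18 than with T12 and 3.26-fold lower with T30 than with T18, steps at which 13.0% and 18.3% of genes were at least 2-fold lower and no host gene was. It was 9.37-fold higher with T18V than with T18, where 16.1% of genes were at least 2-fold higher, then 2.30-fold lower with T18VN than with T18V and 1.63-fold lower with T18VNN than with T18VN. SNHG5 itself moved 1.46-fold up, 1.81-fold down, 1.42-fold up, 1.30-fold down and 1.28-fold down over the same 5 steps, which share libraries with each other. Per read on SNHG5 exons there were 4.63, 1.10 and 0.612 snoRNA reads with T12, T18 and T30, 7.25, 4.08 and 3.22 with T18V, T18VN and T18VNN, and 3.54 in A549. In every library but T30 the snoRNA entries outnumbered the host.

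Between primer classes SNORD50A had a log2 fold change of 1.79 (SE 0.68, edgeR adjusted p = 0.23), which did not pass the threshold. Without a filter on low counts the value was 1.78 and edgeR called it (adjusted p = 0.0105), as it did when scaled by library totals (2.86, adjusted p = 0.0109). Over the 11 alternative analyses the change ran from 1.04, without T18V, to 2.84, without T12, and the adjusted p from 0.0105 to 0.582. In A549 SNORD50A was 2.08-fold above HEK293T T12 (1.96 to 2.21), inside the range of the 6 HEK293T libraries.

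SNORD50A had the most reads of 382 snoRNA entries with a sequence, and its run of 11 adenines is one of only 2 runs of at least 10 among them. The other, of 12 adenines in SNORD116-30, had 0 reads in all 7 libraries. Nearly all SNORD115 and SNORD116 copies had 0 reads, whatever their run length. Of 300 snoRNAs with at most 4 adenines in a row, 59 had at least 20 reads and the highest had 11004; of 72 with 5 or 6 adenines, 5 had at least 20 reads; and of 8 with 7 to 9, 1 had. High counts were also found without a long run. SNORD115 and SNORD116 copies make up most of the 72 and most of the 8, so these counts do not separate run length from expression. The tables give no position of a read within an entry, so whether reads began at the run was not tested.

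**Figure D4:**
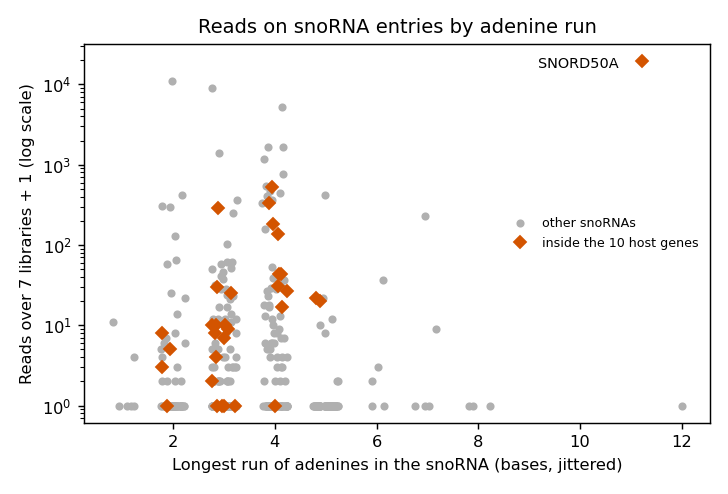
Reads summed over the 7 libraries (plus 1, log axis) against the longest run of adenines in each of 382 snoRNA sequences (points jittered sideways), with entries inside the 10 host genes in orange. SNORD50A stands alone at 11 adenines with 19468 reads, while entries with 4 or fewer reach 11004. The entry with 12 adenines, SNORD116-30, has 0 reads, as do nearly all SNORD115 and SNORD116 copies.

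Of the other 34 snoRNA entries 12 had at least 20 reads, and 6 had none. SNORD79 of GAS5 had 20.2, 5.38 and 2.71 CPM with T12, T18 and T30, 9.61, 15.6 and 88.2 CPM with T18V, T18VN and T18VNN, and 11.3 CPM in A549. Its log2 fold change of 1.84 (SE 0.87, edgeR adjusted p = 0.337) was 0.24 without T18VNN. SNORD81, also of GAS5, had 10.4, 15.0 and 8.58 CPM, then 28.1, 3.79 and 28.6 CPM, and 2.67 CPM in A549. Its deposited entry spans 43 bases and the current RefSeq snoRNA 77. SNORD47 and SNORA103, the remaining GAS5 entries with 20 reads or more, reached 8.90 and 3.79 CPM at most.

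Among the H/ACA snoRNAs, SNORA24 of SNHG8 had 13.2, 7.12 and 35.7 CPM with T12, T18 and T30, 3.91, 8.04 and 15.6 CPM with T18V, T18VN and T18VNN, and 16.7 CPM in A549. SNORA61 of SNHG12 had 3.06, 5.19 and 5.42 CPM, then 3.91, 5.36 and 26.7 CPM, and no read in A549, where 3 reads would be 2.00 CPM. SNORA16A of SNHG12 had 21 reads, all in T18VNN. In SNHG1, SNORD26 had 8.27, 4.23 and 2.26 CPM, then 1.42, 5.80 and 12.8 CPM, and 5.34 CPM in A549, while SNORD27 and SNORD29 had 30 and 26 reads in all. SNORD1C and SNORD1B of SNHG16 had 29 and 24. None of the 7 host snoRNA entries that entered the edgeR fit was called, DESeq2 called 0 of the 5 to which it gave an adjusted p, and 1, SNORD50A, had an unadjusted p under 0.05. Over all genes edgeR called 1.35%, DESeq2 called 6.97% of those to which it gave an adjusted p, and 15.6% had an unadjusted edgeR p under 0.05. Scaled by library totals, edgeR called 2 of the 7, SNORD50A and SNORD79 (2.73, adjusted p = 0.0229), where it called 20.3% of all genes higher.

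T18VNN was the HEK293T library with the highest CPM for 8 of the 13 snoRNA entries with at least 20 reads. It was the highest for 35 of all 70 snoRNA entries with as many reads, the 13 included, and for 3 of the 10 hosts. Among all genes tested, which passed another filter, it was the highest for 18.5%. The 20 reads were summed over libraries that include T18VNN, so an entry could enter through that library alone, as SNORA16A did (21 reads). These shares are therefore not comparable, and no excess in T18VNN is drawn from them. The 35 entries included snoRNAs outside these genes.

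Over all 10 loci, snoRNA entries took 21.6%, 8.33% and 5.06% of the locus reads (host plus snoRNA) with T12, T18 and T30 and 46.3%, 26.5% and 21.4% with T18V, T18VN and T18VNN. In A549 they took 48.1%, the highest of the 7, most of it on SNORD50A. The HEK293T classes overlapped, with means of 11.7% ± 8.74 and 31.4% ± 13.2 (SD, n = 3 each) and a difference of 19.7 percentage points (two-sided exact permutation p = 0.2; 0.4 after adjustment over 2 tests; the smallest possible is 0.1). Without SNORD50A, a choice made after its share was seen, the classes were 1.40 percentage points apart (exact permutation p = 0.6). A549 then stood at 2.53%, below T18VNN at 6.44% and above the other 5 HEK293T libraries, at 1.39% to 2.31%.

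Step by step along the primers, few host genes moved 2-fold. None of 10 did so between T12, T18 and T30. From T12 to T18, 16.2% of genes were at least 2-fold higher and 13.0% lower, from T18 to T30 9.44% and 18.3%, and from T12 to T30 14.9% and 22.1%. From T18 to T18V GAS5 was at least 2-fold higher and no host lower, where 16.1% of genes were higher and 16.3% lower. From T18 to T18VNN GAS5 was higher again and no host lower, where 19.4% and 13.4% of genes were. From T18V to T18VN SNHG3 was lower and SNHG15 higher, where 8.96% and 19.6% of genes were, and from T18VN to T18VNN SNHG15 was lower and none higher, where 13.2% and 10.4% were. From T18V to T18VNN SNHG8 was higher and none of the 9 compared lower, where 16.4% and 9.58% were.

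Genes related to these hosts were counted in the same comparisons, and the shares of all genes at least 2-fold higher or lower in A549 were 31.0% and 29.2%. Of 10 other long noncoding snoRNA hosts compared, 4 were at least 2-fold higher and 3 lower. They included ZFAS1 (158 CPM in A549, 66.5 CPM in HEK293T T12) and DANCR (18.02 and 3.06 CPM), and SNHG10 (2.00 and 74.1 CPM) and SNHG11 (12.7 and 53.0 CPM). With TMM scaling 1 was higher and 3 lower, where 27.0% and 33.6% of all genes were. Of 30 protein-coding snoRNA hosts, mostly ribosomal protein genes, 4 were higher and 12 lower (median log2 ratio -0.49). The lowest were RPS12 at 311 CPM against 2569 CPM and RPL21 at 12.7 and 114.5 CPM, and the highest RPL23A at 2647 and 984 CPM and TPT1 at 1822 and 672 CPM. Ribosomal protein genes have many near-identical pseudogene copies, so their counts are uncertain.

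Factors that act on such RNAs were counted as well. Of 18 nonsense-mediated decay factors 2 were higher and 9 lower by the same threshold (median log2 ratio -0.98). The helicase UPF1 had 125 CPM in A549 against 738 CPM with HEK293T T12, and DHX34 had 2.00 CPM (3 reads) and 35.5 CPM. The kinase SMG1, at 42.7 and 17.8 CPM, and UPF3A, at 18.7 and 3.37 CPM, were the 2 higher ones. Of 18 snoRNP proteins and assembly factors 4 were higher and 9 lower (median log2 ratio -0.88). The assembly ATPase RUVBL1 had 43.4 and 394 CPM and the nucleolar chaperone NOLC1 62.7 and 498 CPM, while the assembly factors ZNHIT6, at 25.4 and 2.76 CPM, and ZNHIT3, at 70.8 and 18.7 CPM, were higher. Of 18 genes listed for mRNAs that start with a pyrimidine tract, mostly translation factors, 4 were higher and 1 lower (median log2 ratio 0.19). With TMM scaling their median was -0.06, and 2 were higher and 2 lower, where 27.0% and 33.6% of all genes were. The highest were VIM, an intermediate filament gene, at 260 and 41.7 CPM and TPT1, which is also a coding host, and the lowest EIF3F at 92.1 and 219 CPM and the nucleolar protein gene NPM1 at 862 and 1609 CPM.

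Between the primer classes edgeR called 2 of these 18 pyrimidine-tract genes, both higher, where 0.781% of all genes were called higher. FAU, a ubiquitin-like fusion of a ribosomal protein, rose by a log2 fold change of 2.40 (edgeR adjusted p = 0.00768) and PABPC1, the cytoplasmic poly(A)-binding protein, by 1.48 (edgeR adjusted p = 0.0351). Of the 18, 9 had an unadjusted edgeR p under 0.05 and DESeq2 called 3. edgeR called none of 11 other long noncoding hosts, 30 coding hosts, 18 decay factors or 18 snoRNP proteins, of which 2, 7, 4 and 3 had an unadjusted p under 0.05 and DESeq2 called 1, 1, 1 and 0. Over all genes 15.6% had an unadjusted edgeR p under 0.05, and DESeq2 called 6.97% of those to which it gave an adjusted p.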

How the data were processed

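For each of 7 libraries the authors deposited a read count for every RefSeq transcript. Per the file headers the tables also give FPM, a signal equal to the count over the library total, and FPKM, the FPM per kilobase of transcript. The signal deposited as FPM gave the library totals, and the deposited FPKM was not tested. Per the submitters' processing notes, FastQC 0.11.8, cutadapt 2.10, Trimmomatic 0.39, HISAT2 2.2.1 and SAMtools were used with GRCh37/hg19. The annotation release, the use of strand and the treatment of reads with several matches are not given in the sources used here, and a read counts for each entry it overlaps. Of 61177 transcript entries 60127 (98.3%) matched a RefSeq symbol, and the entry with most reads was kept per gene. Entry coordinates are hg19. Sequences are RefSeq and GENCODE 29 (GRCh38): 31 of the 35 snoRNAs matched, and for snoRNAs that GENCODE does not name, SNORD50A, SNORD79 and SNORD81 among them, the bases were read from a GENCODE host transcript at the RefSeq position. In 17 of 17 cases with both sources one sequence contained the other.

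The count test was edgeR 4.0.16 in R 4.3.3 (filterByExpr, TMM, quasi-likelihood F-test, Benjamini-Hochberg adjustment at 0.05 over all genes tested), checked on simulated data, with DESeq2 1.42.0 as the alternative. Standard errors (SE) of edgeR changes are |log2 fold change| over the root of its F statistic. For A549, with 1 library, log2(CPM + 1) was compared among genes with at least 20 reads, and intervals of ratios are exact binomial (Clopper-Pearson) intervals on the reads of both libraries, with scipy 1.17.1. Intervals and floors cover counting error only. Samples were grouped by title, and HEK293T T12 replicate 2 and A549 T12 replicate 1, which had no gene counts, were left out.

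Named were all 10 hosts, snoRNAs and overlapping genes with at least 20 reads, per list the 2 highest and 2 lowest log2 ratios in A549 and up to 4 called by edgeR, and the 3 genes most like GAS5. The hosts and lists were chosen with earlier results of these data known. The replicate numbers paired no counted libraries. The 3′ ends of 3 of the 10 hosts are not reported here.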

Additional observations from a re-analysis of the deposited data

Results flagged for a closer look

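In 8 of 25 values compared over the 6 HEK293T libraries, 1 library lay far from the other 5. The host gene among them was SNHG15, at 15.6 CPM with T18VN (70 reads) against 2.78 to 7.04 CPM in the others. SNORA24 of SNHG8 was at 35.7 CPM with T30, against 3.91 to 15.6 CPM. The other 6 were snoRNA entries with a single high value in T18VNN. SNORD79 had 88.2 CPM there against 2.71 to 20.2 CPM, SNORA61 26.7 CPM against 3.06 to 5.42 CPM, and SNORD47 8.90 CPM against 0 to 1.23 CPM. SNORA16A had 5.84 CPM against 0 in the others, SNORD29 5.56 CPM against 0 to 0.446 CPM, and SNORD27 4.17 CPM against 0.451 to 1.34 CPM. These 6 values come from the same library and are not independent. The snoRNA entries were admitted on at least 20 reads summed over the 7 libraries, so 1 high library could bring an entry in. The number of far values was therefore not set against chance.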

How the results depend on the processing

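The fit on library totals and the share without SNORD50A were chosen after seeing the data. Host genes called between primer classes stayed at 0 in 11 other alternatives and came to 3 with library totals as library sizes. The count of all genes called, 147, moved to 595 with DESeq2, 556 without the low-count filter, 25 with the 18-T primers alone and 2266 with library totals. Leaving out 1 library gave 46 (without T18VNN) to 111 genes, and 54, 63 and 85 without T30, T18V and T18. The difference of 0.00419 percentage points in the summed host share changed sign with the longest transcript of each gene (-0.00844), and ran from -0.0118 without T30, through -0.00233 without T18VNN, to 0.022 without T18. Host genes at least 2-fold lower in A549 numbered 5 of 10 against the HEK293T median, where 27.6% of 10255 genes were lower. All genes at least 2-fold higher numbered 5159 with no minimum of reads. The causes of these shifts were not tested. SNHG7 had -0.89 between primer classes on its longest transcript, which ends 621 bases short of the kept 3′ end and held 2.07% of its reads. No paired analysis was possible because the counted libraries are replicate 1 of HEK293T T12 and replicate 2 of A549 T12, which share no number. Depth limits SNHG15 and most snoRNA entries, with 5 to 70 and often under 20 reads.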

Other observations

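The start of the host RNAs, which oligo(dT) counts do not address, was read from the RefSeq promoter table. A transcript start at C followed by at least 4 further C or T was found for 2 of 8 hosts in the table, SNHG5 and SNHG12, and for 4.07% of 35116 promoters. Any start at C was found for 5 of 8 hosts (62.5%) and 14.7% of all promoters. Among 28 protein-coding snoRNA hosts 15 (53.6%) had the longer tract. A start 1 base away would change such a call, so these are descriptions of the annotated base. The annotated start is not always that of the counted entry. For GAS5 it lies well upstream of the counted entry. For SNHG12 it lies slightly upstream, and the counted entry begins past the whole run printed below. The bases read for GAS5 and SNHG12 therefore do not show whether the counted RNA begins with a pyrimidine tract. Below are 5 bases before the start and 30 from it on, 5′ to 3′, with the run from the start in capitals, for SNHG5 (minus strand, chr6:85678704-85678738, GRCh38.p14) and SNHG12 (minus strand, chr1:28581844-28581878, GRCh38.p14).
SNHG5: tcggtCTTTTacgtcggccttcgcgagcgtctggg
SNHG12: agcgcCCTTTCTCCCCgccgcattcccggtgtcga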
